A study of Macaca mulatta with 2 samples.

Results

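Chemokine genes, interleukin genes and the genes of their receptors were followed in macaque optic nerve. Their members were all genes of the deposited table whose symbol begins with *CCL*, *CXCL*, *CCR*, *CXCR* or *IL* followed by a digit, so no expression value was used to choose them. The rule found 135 of the 16684 listed genes, and all 135 were annotated as protein coding in the RefSeq annotation of the Mmul_10 genome. They comprised 24 CC ligands, 11 CXC ligands, 10 CC receptors, 6 CXC receptors, 38 interleukins, 40 interleukin receptor chains, 5 antagonists or binding proteins, and *IL4I1*, an enzyme induced by IL-4 and no cytokine itself.

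Bulk RNA-seq was performed on optic nerve of wild-type rhesus macaques (*Macaca mulatta*) that had received no treatment. There was 1 condition with 2 libraries, named Rep1 and Rep2. According to the methods the nerves came from an adult male, while the deposited description names 2 animals, so the spread between the libraries may be the spread between nerves of 1 animal. The study used these libraries to ask which genes of a lipid mediator pathway are present in primate optic nerve, and the same table gives the levels of inflammatory signalling genes in untreated nerve. With 1 condition and 2 libraries no test between conditions exists, so the comparisons made here are those between genes and between the libraries.

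Levels are given in TPM, a gene's share of all length-corrected reads of its library, and can therefore be compared between genes. The markers of the labelled tissue were present: all 8 oligodendrocyte markers and all 8 astrocyte markers were above 0 in both libraries. Their levels were unequal, with oligodendrocyte sums of 45999 TPM (Rep1) and 212268 TPM (Rep2) and 8 of 8 at least 2-fold higher in Rep2. Astrocyte markers summed to 1148 and 7342 TPM, with 6 at least 2-fold higher in Rep2 and 1 in Rep1. Microglia and macrophage markers summed to 247 TPM (Rep1) and 635 TPM (Rep2), with 10 of 12 above 0 in both. Defining markers of lymphocytes and granulocytes were near 0, with sums of 5.95 TPM for 8 T and NK cell genes, 1.82 TPM for 4 B and plasma cell genes and 4.86 TPM for 5 neutrophil and eosinophil genes in Rep2. The libraries stood far apart. Retina markers summed to 3425 TPM (Rep1) and 18.7 TPM (Rep2), and a read added 17.2 times as many TPM in Rep1 as in Rep2, so that low genes were measured far more coarsely in Rep1. Erythrocyte markers were also higher in Rep1, at 4537 against 1098 TPM. Fibroblast markers summed to 1618 TPM (Rep1) and 15164 TPM (Rep2), with 6 of 6 at least 2-fold higher in Rep2, and pericyte and smooth muscle markers to 137 and 739 TPM. The part of these cell types in the members' values was not tested.

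Chemokines are small secreted proteins that guide migrating cells. They are named for the spacing of their first cysteines, which are adjacent in CC chemokines and separated by 1 residue in CXC chemokines, and they act through G-protein-coupled receptors of the CCR and CXCR families. Interleukins act mostly through receptors built of a chain that binds the ligand and a chain that signals and is shared by several ligands, such as gp130 (*IL6ST*) for the IL-6 family or the common gamma chain (*IL2RG*) for IL-2, IL-7 and their relatives. In the optic nerve and the rest of the central nervous system these genes are known from microglia, astrocytes, oligodendrocytes and cells of the meninges and vessels, and many of them are induced by injury.

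The cysteine motif that names the families could be read for 34 of the 35 ligand genes, of which the reading for *CCL16* is doubtful in the transcript used. Windows of 30 bases are shown for the ligands on which the results below turn, to show the sequence behind the CC and CXC names. Each starts 3 codons before the first cysteine codon, runs 5′ to 3′ on the coding strand and was read from the RefSeq transcript and located in Mmul_10, and capitals mark the codons of the first pair of cysteines.
CXCL12: agctacagaTGCccaTGCcgattcttcgaa
CXCL14: gggtccaaaTGCaagTGCtcccggaaggga
CXCL16: actggaagcTGTcatTGTagtaaaagaatt
CXCL1: gaattgcgcTGCcagTGCttgcagaccctg
CXCL3: gaactgcgcTGCcagTGCttgcagaccctg
CXCL6: gagctgcgtTGCactTGTttacactttacg
CCL13: ccatccactTGCTGCttcacatttagcagt
CCL2: cccgtcactTGCTGCtataacttcaccaat
CCL3: ccgacctccTGCTGCttcagctacatctcc
CCL19: gctgaagacTGCTGCctgtctgtgacccag

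The windows lie in coding exons at chr9:45113418-45113447 for *CXCL12*, chr16:4564586-4564615 for *CXCL16*, chr5:59940564-59940593 for *CXCL1*, chr5:59976661-59976690 for *CXCL6* and chr16:32446379-32446408 for *CCL3*, all on the minus strand. Those of *CXCL3* (chr5:59748378-59748407), *CCL13* (chr16:30734001-30734030), *CCL2* (chr16:30639192-30639221) and *CCL19* (chr15:49513709-49513738) lie on the plus strand. The *CXCL14* window crosses a splice junction on the minus strand of chromosome 6, with its first base at 133040363 and the rest at chr6:133040159-133040187. *CXCL1*, *CXCL3* and *CXCL6* were the 3 listed *CXCL* genes whose first cysteine codon directly follows codons for glutamate, leucine and arginine. This is the ELR motif of chemokines that attract neutrophils. *CXCL12*, *CXCL14* and *CXCL16* lack it. These 3 were the *CXCL* genes above 0 in both libraries. All other *CXCL* genes, the 3 with the motif and 5 without it, were at 0 in Rep1. The chemokine gene *PPBP*, whose symbol is outside the rule, was not read for the motif. It was at 1.38 TPM (Rep1) and 0.482 TPM (Rep2). In Rep2 those with the motif stood at 1.58 TPM (*CXCL1*), 0.619 TPM (*CXCL6*) and 0.124 TPM (*CXCL3*). Of the 50-base words of the *CXCL1* transcript, 21.5% also occur in *CXCL3*, so reads could be exchanged between these 2 genes, and 44.4% of the words of *CXCL3* occur in an unnamed locus.

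Most members were low. Of the 135 members, 30 (22.2%) were above 0 in both libraries, compared with 60.9% of all listed genes. A further 60 were above 0 in Rep2 alone (26.6% of all listed genes), none in Rep1 alone (0.545%), and 45 (33.3%) were listed at 0 in both (11.9%). A mean of at least 10 TPM was reached by 16 members (11.9%), against 43.3% of all listed genes, and a mean of at least 1 TPM by 48 (35.6%), against 70.5%. Among genes above 0 in at least 1 library, the median member had a mean of 1.32 TPM and the median gene 9.55 TPM. Ranked among genes above 0 in at least 1 library, the members' median percentile was 22.4, and no member was in the highest 10% of levels. Together the members took 233 TPM (Rep1) and 1231 TPM (Rep2), and the 5 highest of each library held 50.8% and 47.0% of these sums. In bulk tissue, a low value from few cells of a type cannot be told apart from a low value in every cell.

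Receptor chains of interleukins were found most often, narrowly ahead of CC and CXC ligands. Above 0 in both libraries were 32.5%, 29.2% and 27.3% of these families, compared with 60.9% of all listed genes. Of the 40 receptor chains, 13 were above 0 in both libraries and 19 in Rep2 alone. For interleukins themselves the counts were 6 and 15 of 38, for CC ligands 7 and 11 of 24, and for CXC ligands 3 and 5 of 11. CC receptors had 1 and 3 of 10, and CXC receptors 0 and 4 of 6.

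**Figure D1:**
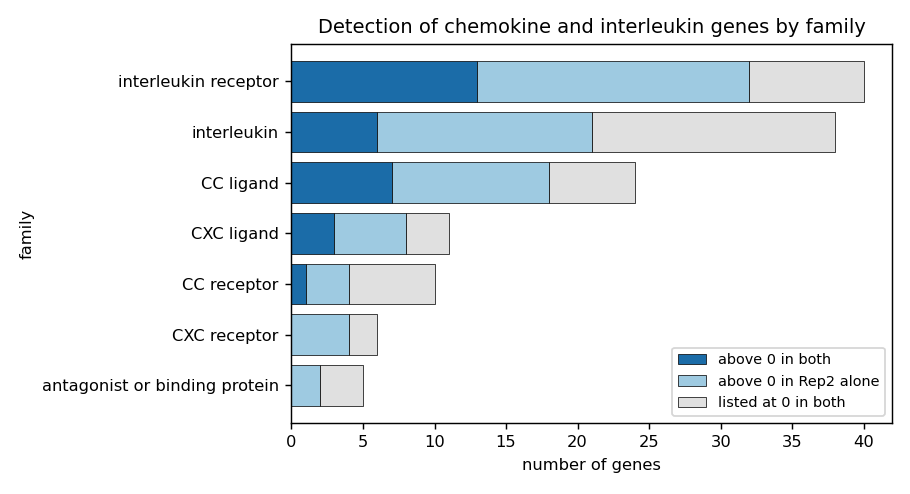
Number of genes (horizontal axis) in each family, split into those above 0 in both libraries, above 0 in Rep2 alone and listed at 0 in both; *IL4I1* is left out. Interleukin receptors have 13 of 40 genes in both libraries and CXC receptors none of 6.

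The highest member was *CXCL12*, which guides leukocytes and neural progenitors through CXCR4. It lies on chromosome 9 (45100832 to 45117692, minus strand) and stood at 26.9 TPM (Rep1) and 162 TPM (Rep2), a mean of 94.5 ± 95.6 TPM (SD, n = 2). It ranked at percentile 88.2 of all genes above 0, with at least 20 reads in Rep1 and at least 2071 in Rep2. *CXCL14*, an attractant of monocytes and dendritic cell precursors with no agreed receptor, stood at 26.0 and 76.4 TPM (mean 51.2 ± 35.6 TPM, n = 2) on at least 49 and 2474 reads. *CXCL16*, which is made as a membrane-bound protein, stood at 3.99 and 25.3 TPM. Rep2 was the higher library for each of these 3 genes, by 6.03-fold, 2.94-fold and 6.32-fold as deposited. Under scaling by the median of ratios, which sets the typical gene equal in the libraries, their differences of log2(TPM + 1), Rep1 minus Rep2, were smaller, at -1.38, -0.36 and -1.33. Genes on the opposite strand, *MED11* and *ZMYND15*, overlap *CXCL16*, and the use of strand in counting is not given in the sources used here.

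The ligands of CXCR3, which are induced by interferons, were listed at 0 in Rep1. In Rep2, *CXCL10* was at 2.06 TPM, *CXCL11* at 0.678 TPM and *CXCL9* at 0. *CXCL13*, the attractant of B cells, and *CXCL17* were listed at 0 in both libraries.

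Among CC ligands *CCL13*, an attractant of monocytes, had the highest mean, at 13.0 TPM (Rep1) and 79.0 TPM (Rep2) (mean 46.0 ± 46.7 TPM, n = 2). From the ratio of the libraries alone, its Rep1 value could rest on as few as 2 reads. This and the read numbers below leave out gene length and can be too low. *CCL2*, the ligand of CCR2, followed at 6.66 and 40.9 TPM (mean 23.8 ± 24.2 TPM). *CCL3*, an attractant of monocytes and T cells, was at 3.54 and 36.5 TPM (mean 20.0 ± 23.3 TPM). As deposited, these 3 were higher in Rep2 by 6.08-fold, 6.13-fold and 10.3-fold, and under the median of ratios their log2 differences were -1.37, -1.34 and -1.99. *CCL19*, which guides lymphocytes and dendritic cells through CCR7, was at 4.11 and 11.8 TPM, and *CCL4L1*, a relative of *CCL3*, at 3.77 and 11.3 TPM. Both had their lower value in Rep1, with at least 2 and 3 reads there. Part of the *CCL4L1* signal is uncertain, since 47.6% of its 50-base words occur in an unnamed locus of the annotation that is no member, and the same holds for 11.3% of the words of *CCL3*.

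*CCL26*, a ligand of CCR3, was at 4.82 TPM (Rep1) and 10.1 TPM (Rep2). *CCL25*, the ligand of CCR9, was the only CC ligand with the higher value in Rep1 as deposited, at 5.92 TPM against 4.82 TPM, and under the median of ratios *CCL26* was so too. From the ratio of the libraries alone, both Rep1 values could come from a single read. The other CC ligands were listed at 0 in Rep1, and in Rep2 the highest of them were *CCL7* at 6.19 TPM, *CCL24* at 3.64 TPM and *CCL5* at 3.28 TPM. *CCL1*, *CCL14*, *CCL16*, *CCL20*, *CCL22* and *CCL23* were listed at 0 in both libraries.

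Neighbouring CC ligand genes on chromosome 16 had very unequal levels. From 30638331 to 30739968 lie *CCL2*, *CCL7*, *CCL11*, *CCL8*, *CCL13* and *CCL1*, in this order. In Rep2 they stood at 40.9, 6.19, 0.107, 1.87, 79.0 and 0 TPM. The high genes were therefore the first and the fifth of the run, and these 2 were also the ones above 0 in Rep1. In the second run, from 32220376 to 32447174, *CCL3* at its end was at 36.5 TPM and *CCL5* at its start at 3.28 TPM, while the 5 genes between them, *CCL16*, *CCL14*, *CCL15*, *CCL23* and *CCL18*, reached at most 0.282 TPM.

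**Figure D2:**
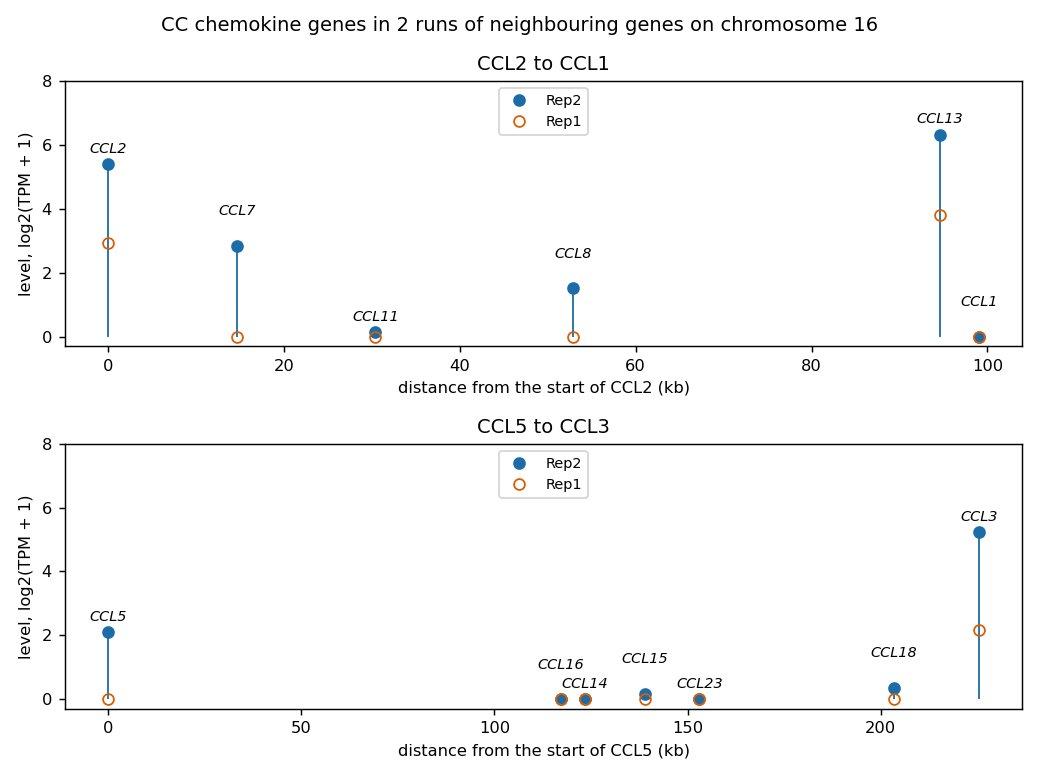
Level, log2(TPM + 1), of CC ligand genes against their distance in kb from the first gene of each run on chromosome 16, with Rep2 as filled and Rep1 as open points. In the first run *CCL2* and *CCL13* stand out in both libraries, and in the second *CCL3*.

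The CCR and CXCR receptors of chemokines were low. The 10 CC receptors summed to 2.23 TPM (Rep1) and 6.63 TPM (Rep2), and the 6 CXC receptors to 0 and 0.631 TPM. *CCR10*, the receptor of CCL27 and CCL28, held most of the Rep2 sum with 5.38 TPM, and was listed at 0 in Rep1. *CCR1*, a receptor of CCL3 and CCL5, stood at 0.694 TPM in Rep2 and *CXCR4* at 0.410 TPM, each listed at 0 in Rep1. These 2 receptors of myeloid cells and lymphocytes were thus below 1 TPM in the deeper library. *CXCR4* overlaps an unnamed locus on the same strand. *CXCR6* was at 0.109 TPM, *CXCR3* at 0.0990 TPM and *CXCR5* at 0.0130 TPM in Rep2. *CCR2*, *CCR3*, *CCR4*, *CCR6*, *CCR7*, *CCR8*, *CXCR1* and *CXCR2* were listed at 0 in both libraries. *CCR9*, a receptor known from gut-homing lymphocytes, was the only CCR or CXCR gene above 0 in Rep1. It was at 2.23 TPM there against 0.389 TPM in Rep2, and the Rep1 value could be a single read.

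Among interleukins, *IL17D* had the highest mean, although *IL34* was higher in Rep2. This member of the IL-17 family was at 22.3 TPM (Rep1) and 34.6 TPM (Rep2) (mean 28.5 ± 8.72 TPM, n = 2), on at least 29 and 774 reads. It overlaps *EEF1AKMT1* on the opposite strand. *IL34*, the second ligand of the CSF-1 receptor that maintains microglia, was at 47.0 TPM in Rep2 but at 0 in Rep1. *IL33*, a nuclear alarmin, likewise stood at 24.8 TPM in Rep2 and at 0 in Rep1. A level of these 2 genes was therefore measured in Rep2 alone.

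*IL6*, the prototype ligand of gp130 receptors, was at 1.17 TPM (Rep1) and 19.8 TPM (Rep2), and *IL18*, an IL-1 family cytokine released after inflammasome activation, at 1.003 and 17.2 TPM. Each Rep1 value could be a single read, against at least 292 and 294 reads in Rep2. *IL1B*, the main secreted IL-1, was at 3.20 and 4.47 TPM. *IL16*, a T cell attractant, was at 3.90 and 2.60 TPM, and *IL7*, a growth factor of lymphocytes, at 1.46 and 1.27 TPM. As deposited, *IL16* and *IL7* were the interleukins with the higher value in Rep1, by 1.501-fold and 1.15-fold, and under the median of ratios *IL17D* and *IL1B* were so too. The Rep1 values of *IL7* and *IL1B* could each be a single read.

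Of the interleukins known from T helper cells, *IL4* was at 0.555 TPM and *IL9* at 0.875 TPM in Rep2, and *IL13*, *IL17A*, *IL17F*, *IL10* and *IL2* were listed at 0 in both libraries. *IL5* was at 6.06 TPM in Rep2 and 0 in Rep1, and it overlaps another gene. The 4 genes of the *IL10* to *IL24* run on chromosome 1 (64278631 to 64418408) were all listed at 0 in both libraries. Of the 9 genes of the *IL1A* to *IL1RN* run on chromosome 13 (15948769 to 16314460), 4 were above 0 in Rep2 and *IL1B* alone reached 1 TPM.

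The receptor chains held the largest sum, 99.2 TPM (Rep1) and 551 TPM (Rep2). The largest part came from the gp130 and IL-12 receptor family, whose 8 genes summed to 43.3 and 302 TPM. *IL6ST*, which encodes the shared signalling chain gp130, was at 21.4 TPM (Rep1) and 159 TPM (Rep2) (mean 90.3 ± 97.5 TPM, n = 2; chromosome 6, 54242537 to 54300162, minus strand). *IL11RA*, the chain that binds IL-11, was at 21.9 and 101 TPM (mean 61.6 ± 56.2 TPM; chromosome 15, 49543264 to 49553926, minus strand). *IL6R*, the chain that binds IL-6, was at 40.5 TPM in Rep2 but at 0 in Rep1. Thus the signalling chain and the IL-11 chain were found in both libraries and the IL-6 chain in Rep2 alone. The chains of the IL-12 and IL-23 receptors were low, with *IL12RB2* at 0.305 TPM in Rep2 and *IL12RB1* and *IL23R* at 0.

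In the family of the common gamma chain and the IL-4 and IL-13 receptors, *IL13RA1* was the highest, at 17.1 TPM (Rep1) and 37.6 TPM (Rep2) (mean 27.3 ± 14.5 TPM, n = 2). It overlaps an unnamed locus on the same strand. *IL4R*, with which it pairs to form a receptor for both IL-4 and IL-13, was at 33.4 TPM in Rep2 but at 0 in Rep1. *IL2RG*, the common gamma chain itself, was at 5.05 and 11.1 TPM, and it overlaps *MED12*. *IL15RA*, which presents IL-15 to neighbouring cells, was at 17.5 TPM in Rep2 and 0 in Rep1. The chains that restrict a response to activated T and NK cells, *IL2RA* and *IL2RB*, were listed at 0 in both libraries, and *IL7R* was at 2.11 TPM in Rep2 and 0 in Rep1.

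In the IL-10 receptor family *IL10RB*, shared by IL-10, IL-22 and the lambda interferons, was at 3.30 TPM (Rep1) and 60.4 TPM (Rep2) (mean 31.8 ± 40.3 TPM, n = 2), the widest gap of the 10 highest members above 0 in both, at 18.3-fold as deposited. *IL10RA*, the chain specific to IL-10, was at 0.555 and 10.9 TPM. *IL20RA* was at 16.9 TPM in Rep2 and 0 in Rep1, and it overlaps an unnamed locus on the same strand. In the IL-17 receptor family *IL17RA* was at 4.55 and 15.2 TPM and *IL17RC*, its partner chain, at 1.54 and 14.4 TPM. *IL17RC* overlaps *CRELD1* on the same strand. *IL17RB* was at 1.47 and 2.09 TPM, and 68.7% of its 50-base words also occur in an unnamed locus.

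The IL-1 receptor family was the only interleukin receptor family with the higher sum in Rep1. Its 9 genes summed to 22.3 TPM (Rep1) and 19.4 TPM (Rep2). *IL1R1*, the signalling receptor of IL-1, was lower in Rep1, with 2.31 TPM (Rep1) and 13.7 TPM (Rep2). *IL1RAPL1*, an X-linked gene known for organizing synapses in neurons, was at 8.92 TPM (Rep1) and 1.64 TPM (Rep2). *IL1RAPL2*, its X-linked relative, was at 9.58 TPM (Rep1) and 0.0279 TPM (Rep2), where at least 1 read was counted against at least 20 in Rep1. Both genes were therefore high in the library in which most others were low. The receptors of IL-33 and IL-18 were at or near 0. *IL1RL1*, the IL-33 receptor, and *IL18RAP* were listed at 0 in both libraries, and *IL18R1* was at 0.0986 TPM in Rep2.

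Of the antagonists and binding proteins, *IL18BP*, which neutralizes IL-18, was at 12.4 TPM in Rep2, and *IL1RN*, the IL-1 receptor antagonist, at 0.949 TPM. Both were listed at 0 in Rep1. *IL1F10*, *IL22RA2* and *IL36RN* were listed at 0 in both libraries.

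The 25 members of highest mean level could not be placed in a firm order. A single-library SD, estimated from how far Rep1 and Rep2 differed for the 200 genes closest in level, was 1.499 to 2.07 on the log2(TPM + 1) scale for these members. None of the 24 neighbouring pairs in the order differed by more than 1 such SD in mean log2(TPM + 1), the widest being *CCL2* and *IL34* at 0.765 SD. The single-library SD was taken about 0, so it also holds the shift between the libraries that most genes share. With that shift taken out by the median of ratios, 1 pair passed 1 SD. As deposited, 4 pairs had the same order in both libraries. Pairs tied at 0 in Rep1, *IL34* with *IL6R* and *IL15RA* with *IL20RA*, were not counted among them. Against *CXCL12*, 18 of the other 24 were lower by more than 1 SD. *IL6ST*, *IL11RA*, *CXCL14*, *CCL13*, *IL17D* and *IL13RA1* were within 1 SD of it, at 0.108 to 0.821 SD. *CXCL12* was thus separated by more than 1 SD from most of the 25, but not from these 6.

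**Figure D3:**
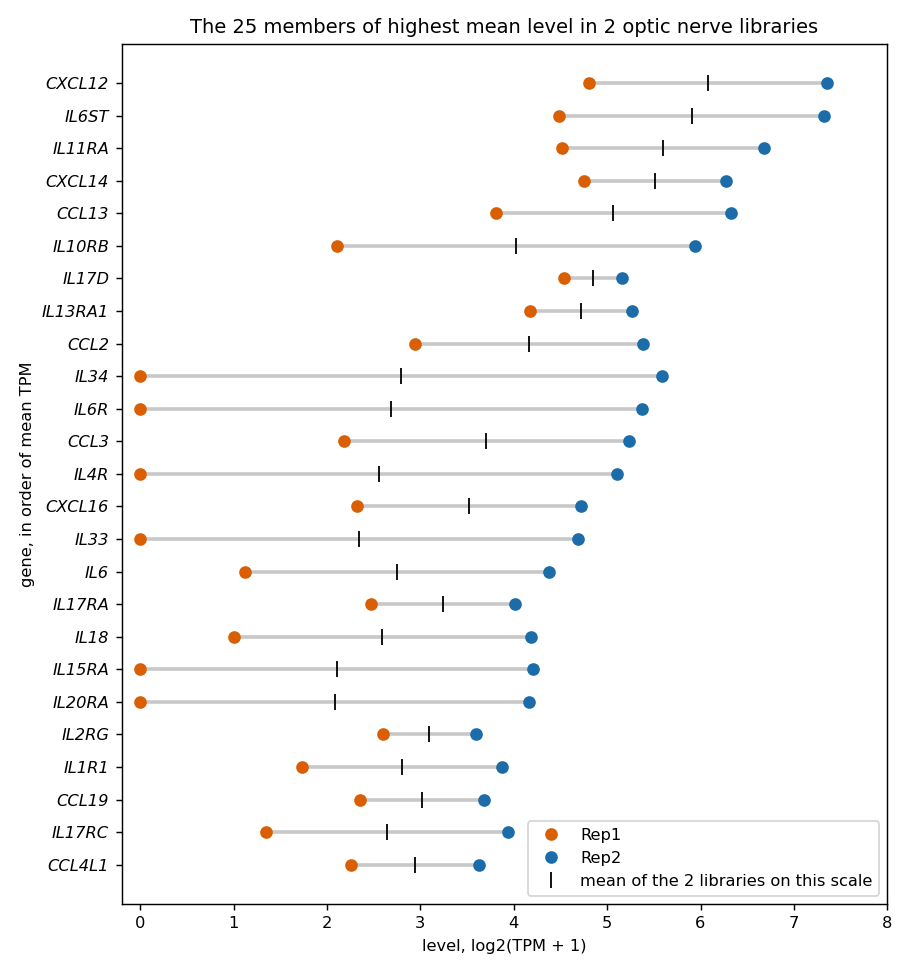
Level, log2(TPM + 1), of the 25 members of highest mean TPM, with 1 point for each library and a tick at the mean of both on this scale. Rep2 is the higher library for all 25 as deposited, and under scaling by the median of ratios for all but *IL17D*, *IL13RA1* and *IL2RG*; 6 of the 25 are listed at 0 in Rep1.

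Ligands and receptors were then set side by side in Rep2, the deeper library, for 27 chemokine pairs and 27 interleukin pairs taken from textbook assignments. For chemokines, 16 pairs had a ligand of at least 1 TPM and a receptor below it, 1 had the reverse, and 1 had both, *CCL27* with *CCR10* at 1.13 and 5.38 TPM. *CXCL12* at 162 TPM stood against *CXCR4* at 0.410 TPM, *CXCL16* at 25.3 TPM against *CXCR6* at 0.109 TPM, and *CCL2* at 40.9 TPM against *CCR2* at 0. Chemokine receptors outside the rule were not paired. *CXCL12* with *ACKR3*, another receptor that takes it up (334 TPM in Rep2), was therefore not counted. Also left out were *ACKR2* at 8.44 TPM, *ACKR4* at 4.82 TPM, *CX3CR1* at 4.45 TPM, *CCRL2* at 0.676 TPM and *XCR1* at 0 in Rep2. The interleukin pairs did include receptors outside the rule, *CSF1R* and *CD93*. The counts of chemokine and interleukin pairs therefore rest on unlike choices of receptors. Among the 27 chemokine pairs, a ligand of at least 1 TPM with its receptor below that level was thus the most frequent kind.

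For interleukins, 6 pairs had both partners at 1 TPM or more, 5 the ligand alone and 7 the receptor alone. *IL34* at 47.0 TPM stood with *CSF1R* at 62.2 TPM, *IL6* at 19.8 TPM with *IL6R* at 40.5 TPM, and *IL11* at 1.39 TPM with *IL11RA* at 101 TPM. The other 3 were *IL1B* with *IL1R1*, *IL7* with *IL7R* and *IL17B* with *IL17RB*. *IL33* at 24.8 TPM stood against *IL1RL1* at 0, and *IL17D* at 34.6 TPM stood against *CD93* at 0.711 TPM. Receptors of at least 1 TPM with a ligand below it included *IL4R*, *IL13RA1*, *IL10RA*, *IL17RA* and *IL20RA*. In Rep1, both partners were above 0 for *CCL25* with *CCR9* and for *IL1B* with *IL1R1*. Since 1 ligand or receptor enters several pairs, the pairs are not independent of each other.

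**Figure D4:**
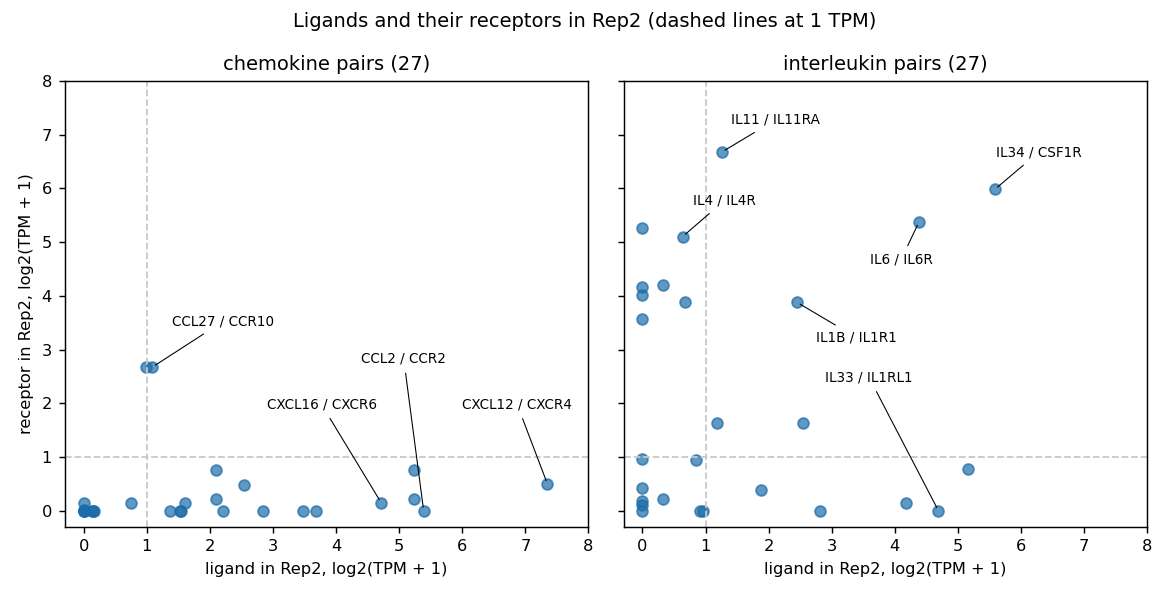
Each point is a ligand and receptor pair, with the ligand level in Rep2 on the horizontal and the receptor level on the vertical axis, both log2(TPM + 1), and dashed lines at 1 TPM. Chemokine pairs (left) have receptors below 1 TPM apart from the 2 pairs of *CCR10*, with 1 of 27 above both lines. Of the interleukin pairs (right), 6 of 27 are above both. Receptors outside the rule enter the interleukin pairs alone (*CSF1R* and *CD93*), so *ACKR3* and other chemokine receptors outside the rule are not drawn.

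Rep2 was the higher library for most members, as for most genes. Expressed as log2(TPM + 1), in which changes of low genes appear smaller than they are, the median difference of Rep1 minus Rep2 was -0.99 over the 90 members above 0 in at least 1 library, and -1.07 over all 14693 such genes. Of the 90, 44 (48.9%) were at least 2-fold higher in Rep2 (51.3% of all genes), 3 (3.33%) at least 2-fold higher in Rep1 (14.8%), and 43 differed by less. A value higher in Rep1 by any amount was found for 6 members, compared with 24.1% of all genes. For the 30 members above 0 in both libraries the ratio of Rep2 to Rep1 had a median of 2.97 and reached 19.6 for *IL10RA*. Their median log2 difference was -1.45, compared with -0.98 for all genes above 0 in both. With the libraries scaled by the median of ratios, which takes out a shift of -1.19 (log2, Rep1 against Rep2), the median difference was -0.64 for the members and -0.38 for all genes. That scaling gave 5 members at least 2-fold higher in Rep1 and 34 in Rep2, so that 12.8% of the members past 2-fold were higher in Rep1 instead of 6.38%, and 41.2% instead of 22.4% of all genes. The direction of 7 members turned under it: *IL17D*, *IL13RA1*, *IL2RG*, *CCL26*, *IL1B*, *IL1RAP* and *IL17RB*.

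The 3 members at least 2-fold higher in Rep1 as deposited were *IL1RAPL2*, *IL1RAPL1* and *CCR9*, with differences of 3.36, 1.91 and 1.22 on the log2(TPM + 1) scale. All 3 stayed higher in Rep1 by more than 2-fold under the median of ratios. Of the 8 retina marker genes, whose sums of 3425 and 18.7 TPM are given above, 6 were also higher in Rep1. All 8 were above 0 in Rep1 and 7 in both libraries, 5 were at least 2-fold higher in Rep1, and *CRX* was listed at 0 in Rep2. *IL1RAPL1* and *IL1RAPL2* overlap several annotated loci. The part of retinal RNA and of the overlapping loci in these values was not tested.

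Members were listed at 0 in Rep1 more often than all genes of the same Rep2 level in 5 of the 6 level ranges. Among genes of 30 to 100 TPM in Rep2, 3 of 10 members (30%) were at 0 in Rep1, *IL34*, *IL4R* and *IL6R*, compared with 3.83% of all genes. Among genes of 10 to 30 TPM, 4 of 15 (26.7%) were, *IL15RA*, *IL18BP*, *IL20RA* and *IL33*, compared with 16.2%. At 3 to 10 TPM the counts were 8 of 10 members (80.0%) against 33.8% of all genes. Of the 3 members over 100 TPM none was at 0. The counts behind these shares are small. By their ratios alone, 21 of the 30 members above 0 in both libraries could rest on 5 or fewer reads in Rep1. The number could be a single read for 9 of them. In Rep1, 1 read stood for at most 0.434 to 6.50 TPM. An absence of these genes from Rep1 is not shown by a value of 0.

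**Figure D5:**
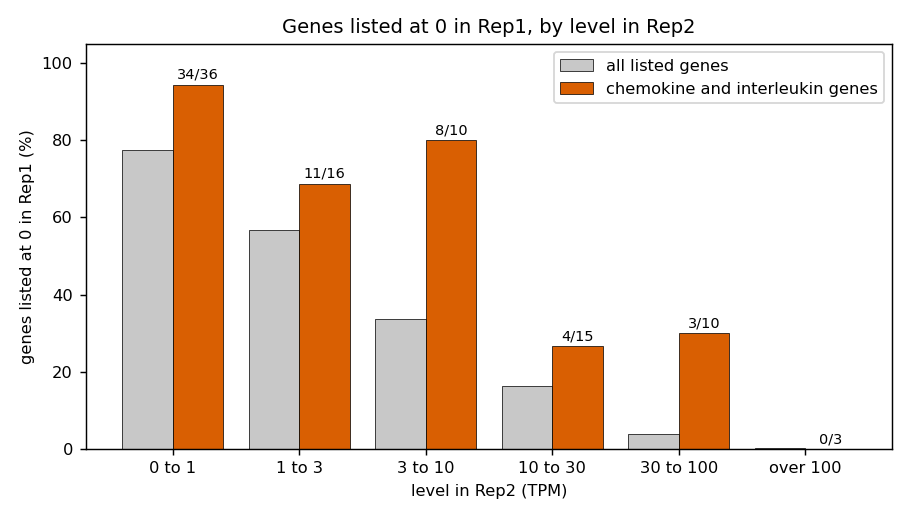
Percent of genes listed at 0 in Rep1 (vertical axis) by their level in Rep2 (horizontal axis, TPM), for all listed genes in grey and for members in orange, with the number of members above each bar. In the range of 30 to 100 TPM, 3 of 10 members are at 0 in Rep1, compared with 3.83% of all genes.

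Cytokine and chemokine genes outside the rule were read from a list of 38, of which 33 were in the table. Of these, 17 were above 0 in both libraries (60.9% of all listed genes), 11 in Rep2 alone (26.6%) and 5 in neither (11.9%). Of the 28 above 0 in at least 1 library, 2 were at least 2-fold higher in Rep1 (14.8% of all such genes) and 19 in Rep2 (51.3%). The 5 highest were *CD74* at 135 TPM (Rep1) and 743 TPM (Rep2), *MIF* at 72.1 and 594 TPM, *ACKR3* at 34.5 and 334 TPM, *TNFRSF1A* at 21.3 and 115 TPM, and *CSF1R* at 61.3 and 62.2 TPM. *ACKR3* encodes an atypical receptor that takes up CXCL12 without G-protein signalling, so *CXCL12* was accompanied by this receptor in both libraries and by *CXCR4* in Rep2 alone. *CD74* encodes a receptor of MIF besides its role in antigen presentation. *CSF1R*, the receptor of IL-34, had nearly the same value in the libraries as deposited.

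Of 49 genes that carry the signals of these receptors, 47 were listed. Above 0 in both libraries were 38 of them (60.9% of all listed genes), 8 in Rep2 alone (26.6%) and 1 in neither (11.9%). For the 46 above 0 in at least 1 library the median difference was -0.49, compared with -1.07 for all such genes. Of these 46, 10 were at least 2-fold higher in Rep1 (14.8% of all such genes) and 20 in Rep2 (51.3%). The 5 highest were *GNB1* at 2389 TPM (Rep1) and 59.2 TPM (Rep2), *NFKBIA* at 768 and 1109 TPM, *GNAI2* at 1115 and 128 TPM, *PIAS1* at 912 and 80.4 TPM, and *JAK1* at 331 and 181 TPM. *JAK1*, a kinase used by gp130 and the IL-10 receptor, was thus above 100 TPM in both libraries. *JAK3*, of the same list, was at 0 (Rep1) and 0.368 TPM (Rep2). As deposited, *NFKBIA* was the only one of these 5 with the higher value in Rep2.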

How the data were processed

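Total RNA was made into libraries by the authors with the SMARTer v4 Ultra Low Input RNA reagents, in which cDNA is amplified, and sequenced on a NovaSeq. The submitters' processing notes name FastQC 0.11.9, Trim Galore 0.6.6, STAR 2.7.1a, featureCounts 1.5.3 and Mmul_10. Read counts were turned by the authors into TPM, and these deposited values, 1 column per library, depend on every other gene of the library. Gene lengths, strand use and the treatment of multiply aligned reads are not given in the sources used here. The columns Rep1 and Rep2 are not tied to sample titles and were used as replicates of the condition.

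Values were analysed as deposited and as log2(TPM + 1), with a pseudocount of 1, in Python 3.11, numpy 2.4.6 and pandas 2.3.3, and drawn with matplotlib 3.10.9. No p-value was computed. The SD of a single library was taken about 0 over the 200 nearest genes. Each gene's ratio between the libraries was written as the smallest whole read numbers (tolerance 1e-12, product under 100000000), which are lower bounds. They rest on the ratio alone and not on gene length, so true read numbers can be higher multiples. All 30 members above 0 in both libraries and 99.9% of all such genes gave whole reads. Runs of neighbours had at least 4 members with gaps of up to 500000 bases. The methods were tested on simulated data.

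By rule, the 25 members of highest mean TPM, those at least 2-fold higher in Rep1, pairs with both partners above 0 in both libraries and the 5 highest genes of each further list were named. Other members were named after their values were seen. The members, lists and pairs were chosen with earlier results of these data known. Positions and sequences came from RefSeq for Mmul_10, in which all 135 members matched. Of these, 36 overlap a gene on the opposite strand and 7 on the same strand, and 6 share at least 5% of their 50-base words with another gene. A further annotated gene that meets the rule was not analysed here. Some members are counted but not reported individually here.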

Additional observations from a re-analysis of the deposited data

How the results depend on the processing

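No paired analysis was possible because there was 1 condition. The median member difference of -0.99 (Rep1 minus Rep2) became -0.64 with scaling by the median of ratios, -2.75 with a pseudocount of 0.1, -0.33 over all listed members and -2.19 over members averaging at least 1 TPM, all negative. Scaling by the median of ratios gave 5 members at least 2-fold higher in Rep1 instead of 3, and turned *IL13RA1* to 0.050, *IL17D* to 0.54, *IL1B* to 0.56 and *IL2RG* to 0.049. A pseudocount of 0.1 gave 74 members at least 2-fold higher in Rep2 instead of 44. The widest neighbour difference, 0.765 SD, became 1.08 SD with the median of ratios and 1.14 SD with a pseudocount of 0.1, 1 pair over 1 SD in each. The median percentile of 22.4 became 32.8 when only genes averaging at least 1 TPM were ranked. With 1 library left out it was 15.1 to 24.1. The median level of members above 0 in at least 1 library, 1.32 TPM, was then 0 to 1.89 TPM. The lower values came from Rep1 alone. The count of 30 members above 0 in both libraries was 29 at a minimum of 0.1 TPM and 27 at 1 TPM. Leaving out the 10 most abundant genes gave a median difference of -1.19 and 54 members at least 2-fold higher in Rep2. Of 30 named genes, the mean TPM moved by over 1 SD for 2 when those 10 genes were left out. With 2 libraries, either library alone and the geometric mean always lie within 1 SD of the mean, so they say nothing about stability. Depth in Rep1 limits all low values, and no interval can be given for TPM.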
